A study of Mus musculus with 51 samples.

Results

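The step between 18h and 20h was followed in control mouse embryos, the unedited counterparts of embryos that lack LoNA. LoNA is a nucleolar RNA that is long and noncoding, and KO stands for its knockout. Members were the RNA libraries of the control group at both times, 3 at 20h and 3 at 18h, which makes 6 libraries in a series of 51 labelled samples. Control embryos at 20h were set against control embryos at 18h. Both groups are of the C57BL/6 strain and carry no edit that the labels name. The labels describe the material as 2-cell embryos, do not say from which event the hours are counted, and name Trizol for the extraction of total RNA without saying how RNA was selected. LoNA KO embryos of the same strain, 3 libraries at 20h and 3 at 18h, served only as a second look at the same step.

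In the mouse, the first cleavage is carried by RNA and protein that the oocyte laid down before ovulation. During the 2-cell stage most of that maternal RNA is degraded, and the embryo's own genome is switched on in waves. The burst of transcription at that stage includes Zscan4, Usp17l and Tdpoz genes that are almost silent at other times, and it is followed by genes for ribosomes, RNA processing and energy metabolism.

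The deposited counts per gene were scaled to CPM (counts scaled to one common library total) with factors estimated over the 6 libraries together. The libraries held 12077497 to 14980081 counts at 20h and 12962070 to 15842665 counts at 18h. A count was present for 17613 to 18748 genes at 20h and for 20372 to 22370 genes at 18h, so each 20h library detected fewer genes than each 18h library at a like depth. All 12 oocyte markers and all 7 markers of the 2-cell stage had a count in 6 of 6 libraries, with the maternal gene Khdc3 near 0 (0.073 to 4.08 CPM). Markers of cumulus and granulosa cells summed to 31.1 to 70.5 CPM at 20h and 54.3 to 86.7 CPM at 18h, and those of fibroblasts, blood cells and sperm or testis summed to at most 138 CPM in any library, with overlapping ranges at both times. Control 20h library 1 stood apart: its log2(CPM + 1) values correlated with the other 20h libraries at 0.877 and 0.885, against 0.916 between those 2 and 0.926 to 0.939 among the 18h libraries. 20h library 2 correlated more closely with every 18h library (0.883 to 0.907) than with 20h library 1. The same held for 20h library 3 with 18h libraries 1 and 2 (0.909 and 0.898), but not with 18h library 3 (0.878). The first principal component, with 33.8% of the variance, separated the times, and the second, with 25.8%, set 20h library 1 apart from the other 20h libraries. Libraries are named here by their column order. Each group has 3 columns for 4 labelled samples, and nothing says whether these came from separate pools of embryos, so a p-value measures only the spread between these libraries. The 20h and 18h libraries stand in separate deposited tables, so time and whatever else differed between those tables cannot be told apart.

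Of 15414 genes tested, 3 fell at 20h and none rose at an adjusted p under 0.05 by edgeR's quasi-likelihood test with Benjamini-Hochberg adjustment. The called shares were 0.0195% lower and 0% higher. At an unadjusted p under 0.05 edgeR gave 1372 genes higher (8.9%) and 1011 lower (6.56%). DESeq2 gave an adjusted p to 17442 genes, and 584 higher (3.35% of these) and 521 lower (2.99%) passed its adjusted p under 0.05. The biological coefficient of variation, edgeR's measure of spread between libraries, was 69.5%. The smallest adjusted p of a higher gene was 0.0787, and at an adjusted p under 0.10, a threshold added after the values were seen, edgeR gave 258 genes higher (1.67%) and 80 lower (0.519%). DESeq2 called every one of those 258 and 80 genes, which made up 44.2% and 15.4% of its own calls. A plainer count was also used: a gene's groups do not overlap when all 3 libraries of one time lie beyond all 3 of the other. That held for 2016 genes higher at 20h (13.1%) and 1672 genes lower (10.8%), and these shares are the background for every gene group described here. The median log2 20h over 18h over all genes tested was 0.02.

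The 3 genes that fell were a zinc finger gene, an olfactory receptor gene and a pseudogene, and each was close to absent at 20h. Zfp54, a zinc finger gene at chr17:21423227-21435640 on the plus strand of mm10, had 0.0715, 0.511 and 0.26 CPM in the 20h libraries, against 14.5, 34.2 and 48.5 CPM in the 18h libraries. Those levels rest on 1, 7 and 3 counts at 20h and 187, 596 and 760 counts at 18h, and the groups lie far apart. Its log2 20h over 18h was -6.81 ± 0.78 (SE), with an adjusted p of 0.024 by edgeR.

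Olfr881, an olfactory receptor gene at chr9:37991825-37996408 on the plus strand, had 1.002, 0 and 0.52 CPM in the 20h libraries, against 54.3, 42.3 and 52.3 CPM in the 18h libraries. It was the most even of the 3 within 18h, and its log2 20h over 18h was -6.58 ± 0.81 (SE; edgeR adjusted p = 0.0326). Gm5543, annotated as an unprocessed pseudogene at chr3:94157631-94158721 on the minus strand, had 0.0715, 0.073 and 0 CPM at 20h, against 11.9, 24.5 and 46.0 CPM at 18h. Only 2 counts in all were seen at 20h, against 1301 at 18h, and the log2 20h over 18h was -8.85 ± 0.90 (SE; edgeR adjusted p = 0.0161). Reads of a pseudogene can be shared with the gene it was copied from, so this level is uncertain. With 20h library 3, 18h library 2 or 18h library 3 left out, edgeR called none of the 3 (adjusted p 0.0733 to 0.207), and without 18h library 1 Olfr881 alone was lost (adjusted p = 0.186). In a fit over all 12 libraries of both genotypes their adjusted p was 0.0731 to 0.0899. In bulk RNA, fewer embryos or cells with a transcript and less of it per cell cannot be told apart, here and in every result that follows.

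Among genes higher at 20h, the 6 with the smallest p were named, each at an edgeR adjusted p of 0.0787. Eif2s2, which encodes the beta subunit of the initiation factor that brings the initiator tRNA to the ribosome, had 533, 506 and 657 CPM at 20h, against 150, 133 and 189 CPM at 18h. The groups lie far apart, with a log2 difference of 1.85 ± 0.28 (SE). Eif1ax, encoding an initiation factor that takes part in start codon scanning, had 400, 325 and 329 CPM at 20h, against 102, 122 and 112 CPM at 18h. Libraries of one time lie close together and far from the other time. Rgs2, a regulator of G-protein signalling that mouse eggs store as RNA, was the most abundant of the 6. It had 8828, 5033 and 6372 CPM at 20h, against 1892, 1590 and 1590 CPM at 18h, a log2 difference of 2.00 ± 0.31 (SE). Setd4, encoding a SET-domain methyltransferase, had 343, 293 and 283 CPM at 20h, against 79.8, 100.2 and 102 CPM at 18h. Ppp1r11, encoding an inhibitor of protein phosphatase 1, had 172, 135 and 178 CPM at 20h, against 43.3, 41.05 and 53.3 CPM at 18h. The lincRNA Gm43269 had 165, 119 and 105 CPM at 20h, against 30.0, 19.5 and 38.1 CPM at 18h. In all 6 every 20h library lay well above every 18h library.

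**Figure D1:**
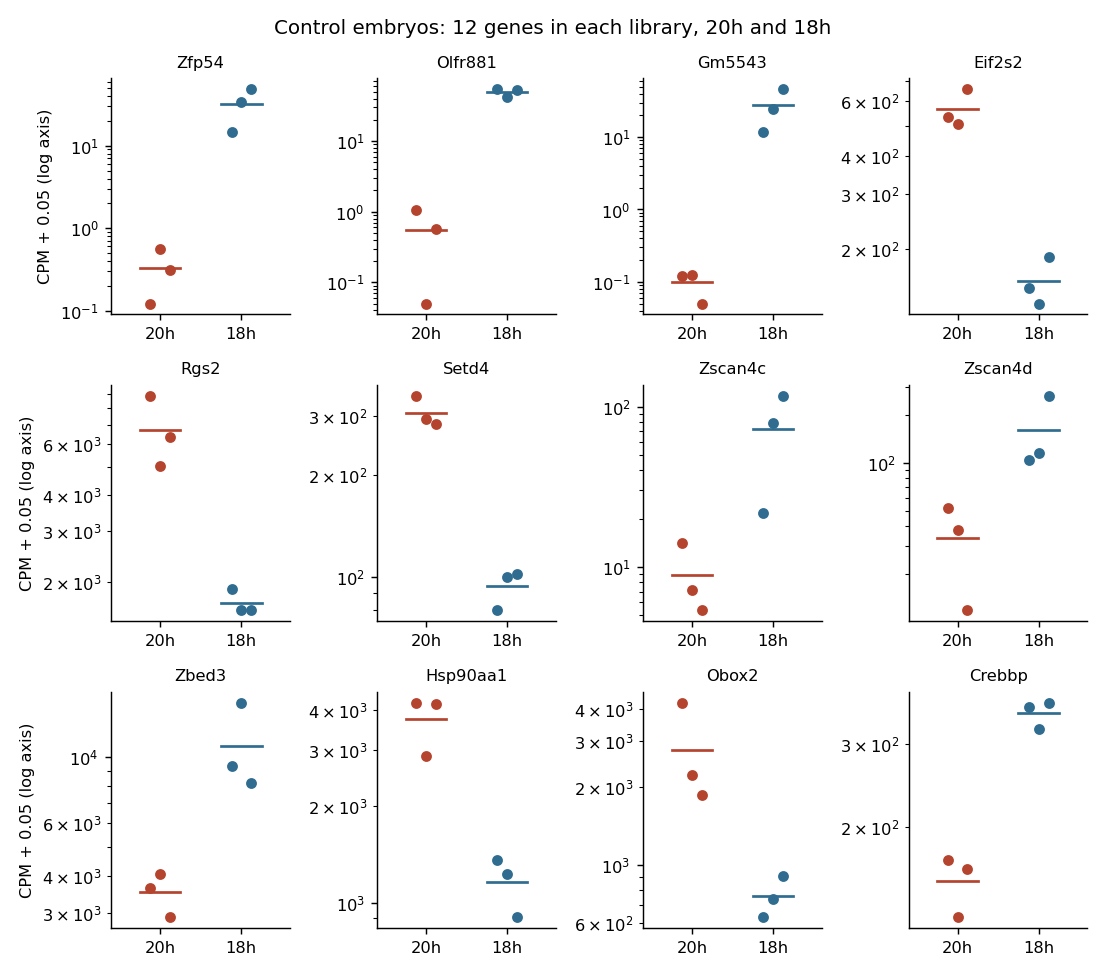
Level of 12 genes in each control library, in CPM plus 0.05 on a log axis, with 20h libraries at the left and 18h libraries at the right of each panel and a bar at each group's mean. The 20h and 18h points do not overlap in any of the 12 panels, and Zfp54, Olfr881 and Gm5543 are the 3 genes that passed the test.

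Genes of the 2-cell burst were mostly lower at 20h. Of 56 listed, 53 passed the filter on low counts, 20 had all 3 20h libraries below all 3 18h libraries (37.7%) and 2 had them all above (3.77%), against 10.8% and 13.1% of all genes tested. Their median log2 20h over 18h was -1.36, against 0.02 for all genes, and it stayed between -1.97 and -1.06 with each library left out in turn. By edgeR none passed an adjusted p under 0.05, 19 were lower and 3 higher at an unadjusted p under 0.05, and 5 were lower at an adjusted p under 0.10. Without 20h library 1, 29 members lay below all 18h libraries (54.7%, against 17.8% of all genes).

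Zscan4 genes encode SCAN-domain zinc finger proteins that act at telomeres and mark the 2-cell stage. Zscan4c had 13.95, 7.15 and 5.29 CPM at 20h, against 21.5, 78.8 and 116 CPM at 18h, a log2 difference of -3.03 ± 0.61 (SE; edgeR adjusted p = 0.0801). Zscan4d had 51.7, 37.8 and 11.7 CPM at 20h, against 104, 116 and 264 CPM at 18h, a log2 difference of -2.25 ± 0.54 (SE; edgeR adjusted p = 0.096). Zscan4f had 2.08, 0.511 and 1.21 CPM at 20h, against 4.27, 10.97 and 35.9 CPM at 18h. In all 3 the 18h libraries vary among themselves by more than 2-fold and yet none reaches down to a 20h library. The copies are near-identical, so how their reads were divided among them is uncertain.

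The likeness extends to their promoters, which are shown because these 3 neighbours on chromosome 7 were lower together. Each window runs from 250 bases before to 50 bases after the RefSeq start (GRCm38.p6, the same assembly as mm10), 5′ to 3′ on the strand of the gene. It lies at chr7:11005495-11005794 on the plus strand for Zscan4c, at chr7:11166099-11166398 on the minus strand for Zscan4d and at chr7:11397665-11397964 on the plus strand for Zscan4f. Capitals mark the motif TATAAA, then the motif CCAAT, and upstream of both the run TGATTCAA.
Zscan4c: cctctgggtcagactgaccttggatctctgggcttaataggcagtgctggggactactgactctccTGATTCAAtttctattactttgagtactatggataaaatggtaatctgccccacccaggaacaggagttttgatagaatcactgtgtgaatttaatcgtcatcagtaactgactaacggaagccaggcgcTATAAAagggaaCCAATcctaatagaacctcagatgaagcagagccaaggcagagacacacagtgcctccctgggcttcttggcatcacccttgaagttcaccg
Zscan4d: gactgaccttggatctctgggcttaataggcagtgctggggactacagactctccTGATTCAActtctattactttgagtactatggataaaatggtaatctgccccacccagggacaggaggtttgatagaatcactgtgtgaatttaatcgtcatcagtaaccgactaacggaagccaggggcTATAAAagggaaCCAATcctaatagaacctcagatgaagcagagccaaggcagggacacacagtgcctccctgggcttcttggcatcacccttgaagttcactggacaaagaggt
Zscan4f: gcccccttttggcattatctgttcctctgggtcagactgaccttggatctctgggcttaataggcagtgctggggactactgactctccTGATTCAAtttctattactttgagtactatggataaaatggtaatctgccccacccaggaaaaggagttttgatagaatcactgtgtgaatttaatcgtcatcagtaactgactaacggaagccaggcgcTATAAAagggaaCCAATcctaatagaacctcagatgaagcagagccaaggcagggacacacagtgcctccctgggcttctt
The windows of Zscan4c and Zscan4d are identical at 281 of 289 aligned bases, those of Zscan4c and Zscan4f at 275 of 277, and those of Zscan4d and Zscan4f at 259 of 266. TATAAA begins 54, 65 and 31 bases before the RefSeq start in Zscan4c, Zscan4d and Zscan4f, CCAAT follows it, and TGATTCAA lies further upstream. TGATTCAA was picked after the sequences were read. Both strands were searched, and these motifs do not overlap in the windows shown. TATAAA was found in 8 of 23 windows of 2-cell genes (34.8%), against 8.54% of the 12958 windows of all genes tested. CCAAT was found in 65.2%, against 38.5%. The 3 near-identical Zscan4 windows hold both motifs and are counted in both shares. The windows are thus not independent, only 23 of 53 tested members have one, and nothing is read from these shares. TGATTCAA was found in 4 of the 23 windows of 2-cell genes, and 3 of these are the near-identical windows from which it was picked, so no share is read from it. The 12958 windows belong to 10279 of the tested genes, matched by symbol and position. A match is a description of letters and does not mark a bound site.

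For contrast with the Zscan4 windows, those of Zfp54, the zinc finger gene that fell (the first of 3 windows, chr17:21422977-21423276, plus strand), and of Eif2s2, which had the smallest p among the named higher genes (chr2:154892857-154893156, minus strand), hold none of these letters on either strand, nor GGGCGG.
Zfp54: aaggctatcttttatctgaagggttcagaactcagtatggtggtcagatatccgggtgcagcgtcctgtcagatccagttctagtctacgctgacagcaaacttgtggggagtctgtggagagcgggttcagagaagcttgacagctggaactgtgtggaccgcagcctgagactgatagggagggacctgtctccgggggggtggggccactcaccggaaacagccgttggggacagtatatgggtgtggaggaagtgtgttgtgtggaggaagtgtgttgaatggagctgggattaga
Eif2s2: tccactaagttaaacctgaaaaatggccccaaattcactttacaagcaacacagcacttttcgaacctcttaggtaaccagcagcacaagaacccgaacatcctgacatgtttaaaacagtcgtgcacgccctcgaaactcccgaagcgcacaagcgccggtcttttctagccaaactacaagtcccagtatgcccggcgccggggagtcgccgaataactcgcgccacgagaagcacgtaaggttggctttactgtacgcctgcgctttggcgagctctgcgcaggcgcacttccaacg
GGGCGG was found in 8.7% of the 2-cell windows, against 57.2% of the windows of all genes tested. The median share of G and C bases also differed, at 46.0% in the 2-cell windows and 59.3% in all. Its part in the motif shares was not tested.

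Other genes of the 2-cell list were lower in the same manner. Usp17le, from a family of deubiquitinating enzymes, had 3.65, 3.36 and 3.03 CPM at 20h, against 7.37, 39.0 and 54.6 CPM at 18h. AF067061 had 8.66, 7.88 and 6.50 CPM at 20h, against 17.2, 35.0 and 53.7 CPM at 18h. Zfp352, a zinc finger gene transcribed early in the mouse embryo, had 51.4, 60.2 and 14.0 CPM at 20h, against 97.0, 136 and 240 CPM at 18h (edgeR adjusted p = 0.119). In each of these the groups do not overlap. The list's most abundant genes showed a smaller difference or none. C87414 had 922, 2586 and 2037 CPM at 20h, against 2849, 2594 and 2627 CPM at 18h, and 20h library 1 is the low one. C87499 had 278, 852 and 913 CPM at 20h, against 939, 879 and 574 CPM at 18h, where the groups overlap. The summed level of the list was 4519, 6297 and 5787 CPM at 20h, against 6342, 7451 and 7667 CPM at 18h.

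Not every gene of the burst lay lower. Tcstv1, chosen after its values were seen, had 517, 226 and 325 CPM at 20h, against 177, 154 and 200 CPM at 18h, with all 20h libraries above all 18h libraries. Duxf3, the mouse Dux gene, a transcription factor that switches on Zscan4 and other 2-cell genes, had 12.95, 2.33 and 0.694 CPM at 20h, against 1.71, 3.73 and 5.11 CPM at 18h. Its groups overlap, and its log2 20h over 18h of 0.60 becomes -1.31 without 20h library 1. At 18h, 20h and 22h, the mean of Zscan4c in control embryos was 72.2, 8.80 and 4.73 CPM.

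Obox homeobox genes, whose transcripts are stored in the mouse oocyte and also made at genome activation, had shares near those of all genes in both directions. Among 26 of 43 listed that passed the filter, 4 had all 20h libraries above all 18h libraries (15.4%; Obox1, Obox2, Obox5, Obox7) and 4 had them all below (15.4%; Obox3, Obox6 and the pseudogenes Obox4-ps31 and Obox4-ps35). The abundant copies were those with higher levels at 20h. Obox2 had 4209, 2213 and 1864 CPM at 20h, against 631, 742 and 912 CPM at 18h, a log2 difference of 1.86 ± 0.36 (SE; edgeR adjusted p = 0.0795). Obox1 had 8878, 5071 and 4973 CPM at 20h, against 2903, 2796 and 3373 CPM at 18h, and Obox5 had 10200, 8514 and 8668 CPM at 20h, against 6665, 5972 and 7311 CPM at 18h. None of these overlaps between the times. Obox6, chosen after its values were seen, had 3.43, 2.70 and 5.72 CPM at 20h, against 11.6, 17.1 and 22.3 CPM at 18h. The summed level was 26400, 17220 and 17190 CPM at 20h, against 11330, 10400 and 12750 CPM at 18h, while the median log2 over members was -0.65, so the sum and the median differ in sign. The annotated span of Obox1 overlaps that of Obox2 on the same strand, and the copies are alike in sequence, so their split is uncertain.

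Prame-like genes, a family with many copies expressed in the oocyte and early embryo, had 4 of 14 tested members with all 20h libraries below all 18h libraries (28.6%, against 10.8% of all genes) and 1 with them all above (7.14%, against 13.1%), at a median log2 of -0.93. Pramef25 had 8.16, 12.1 and 6.94 CPM at 20h, against 25.4, 64.0 and 22.9 CPM at 18h. The more abundant Oog3 had 880, 2615 and 1215 CPM at 20h, against 2965, 2261 and 2316 CPM at 18h, where 20h library 2 lies among the 18h libraries, and Oog4 overlapped as well. Transcription factors of genome activation were near the background, with 2 of 24 tested members above and 2 below without overlap and a median log2 of -0.12. Klf17 had 364, 730 and 413 CPM at 20h, against 541, 1175 and 717 CPM at 18h, and Yap1 had 220, 148 and 120 CPM at 20h, against 198, 257 and 269 CPM at 18h. Both overlap between the times.

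Of 68 tested members of the oocyte and maternal list, 13 had all 20h libraries above all 18h libraries (19.1%) and 7 had them all below (10.3%), with a median log2 of 0.10. Their sum took 135100, 151400 and 143300 CPM at 20h, against 125000, 118100 and 118200 CPM at 18h. In KO embryos the sum was 123800, 115500 and 122100 CPM at 20h, against 111300, 125400 and 143700 CPM at 18h, with overlap. The sums include Dppa3, with control means of 13780 CPM at 20h and 5372 CPM at 18h, and were not tested. CPM is relative to the rest of a library, so no value given here shows the amount of RNA per embryo. Dppa3, also called Stella, which shields the maternal genome from demethylation, had 20120, 9902 and 11320 CPM at 20h, against 5432, 3986 and 6699 CPM at 18h, a log2 difference of 1.36 ± 0.36 (SE; edgeR adjusted p = 0.113). Npm2, the nucleoplasmin that shapes nucleoli in the mouse egg and zygote, had 2890, 1541 and 1818 CPM at 20h, against 646, 840 and 837 CPM at 18h (log2 1.43; edgeR adjusted p = 0.0874). E330017A01Rik had 124, 98.2 and 138 CPM at 20h, against 50.4, 54.7 and 58.5 CPM at 18h. No 20h library of these 3 genes overlaps with 18h.

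Other maternal transcripts overlapped between the times or lay apart in either direction. Spin1, an abundant maternal spindle-associated gene, had 15120, 23770 and 23650 CPM at 20h, against 19880, 19910 and 18060 CPM at 18h. Btg4, the adaptor that brings the deadenylase to maternal mRNA, had 8176, 8784 and 9148 CPM at 20h, against 9294, 6849 and 8572 CPM at 18h, and its groups overlap. Mos, the kinase that holds the egg in metaphase, had 17.8, 11.4 and 9.97 CPM at 20h, against 12.8, 8.67 and 11.6 CPM at 18h. Gdf9, an oocyte growth factor, had 259, 360 and 474 CPM at 20h, against 589, 536 and 266 CPM at 18h, also with overlap. Bmp15, its partner growth factor, chosen after its values were seen, had 933, 1744 and 1449 CPM at 20h, against 4664, 2279 and 2557 CPM at 18h. Zp3, a zona pellucida gene, had 35.6, 34.7 and 74.1 CPM at 20h, against 24.1, 26.0 and 24.1 CPM at 18h. Bmp15 and Zp3 do not overlap between the times and lie in opposite directions.

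The subcortical maternal complex, a protein assembly under the membrane of the egg, had 1 of 7 tested members above (14.3%) and 1 below (14.3%) without overlap, which is near the shares of all genes. Zbed3, a member of the complex, had 3652, 4063 and 2913 CPM at 20h, against 9330, 15200 and 8220 CPM at 18h, a log2 difference of -1.62 ± 0.33 (SE; edgeR adjusted p = 0.0832). Ooep, another member, had 2457, 1118 and 1951 CPM at 20h, against 826, 454 and 564 CPM at 18h (log2 1.58; edgeR adjusted p = 0.0902). Neither gene overlaps between the times, and the other 5 of 7 tested members do. The sum was 7708, 6830 and 6114 CPM at 20h, against 12880, 17180 and 10610 CPM at 18h, and Zbed3 holds most of it at 18h. Nlrp4f had 1264, 1243 and 870 CPM at 20h, against 2114, 1136 and 1440 CPM at 18h, with overlap.

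Factors that degrade maternal mRNA had 5 of 32 tested members with all 20h libraries below all 18h libraries (15.6%), 1 above (3.12%) and a median log2 of -0.42. Cnot7, a catalytic subunit of the CCR4-NOT deadenylase, had 357, 792 and 590 CPM at 20h, against 1520, 1288 and 1121 CPM at 18h, a log2 difference of -1.18 ± 0.33 (SE; edgeR adjusted p = 0.131). Ythdf3, which reads methylated adenosine in mRNA and was chosen after its values were seen, had 88.4, 123 and 67.1 CPM at 20h, against 224, 186 and 169 CPM at 18h. Cnot2, a scaffold subunit of the same deadenylase and likewise chosen after its values were seen, had 73.8, 123 and 73.1 CPM at 20h, against 169, 169 and 166 CPM at 18h. The groups of all 3 lie apart.

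Genes of the respiratory chain encoded in the nucleus were mostly higher at 20h. Of 76 tested members, 28 had all 20h libraries above all 18h libraries (36.8%, against 13.1% of all genes) and 2 had them all below (2.63%). The median log2 was 0.86 and stayed between 0.58 and 0.97 with each library left out. None passed an adjusted p under 0.05 by edgeR, 25 were higher and 1 lower at an unadjusted p under 0.05, and 4 were higher at an adjusted p under 0.10. The sum was 4977, 3912 and 4837 CPM at 20h, against 2979, 2592 and 2963 CPM at 18h. Without 20h library 1, 33 members were above without overlap (43.4%, against 19.9% of all genes).

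Sdhd, a membrane anchor of succinate dehydrogenase, had 88.6, 126 and 167 CPM at 20h, against 40.2, 44.8 and 40.9 CPM at 18h. Cox6a1, a subunit of cytochrome c oxidase, had 65.9, 68.1 and 57.0 CPM at 20h, against 26.4, 22.6 and 27.8 CPM at 18h. Ndufb11, a subunit of complex I, had 107, 70.6 and 67.7 CPM at 20h, against 23.9, 32.8 and 35.5 CPM at 18h. The groups of these 3 do not overlap, and Cox6a2 and Cox8a likewise lie apart. Atp5b, the catalytic beta subunit of ATP synthase, lay opposite to its list with 154, 325 and 290 CPM at 20h, against 509, 535 and 370 CPM at 18h. The transcripts encoded by the mitochondrial genome itself stood in contrast, since none of 16 was without overlap between the times. Their median log2 was 0.07, and it ran from -0.35 to 0.44 with each library left out in turn. By edgeR none of the 16 passed an adjusted p under 0.05 or an unadjusted p under 0.05. Their sum was 49130, 54630 and 40540 CPM at 20h, against 56570, 26000 and 54720 CPM at 18h, with 18h library 2 the low one. mt-Cytb, encoding cytochrome b, had 19510, 24110 and 20300 CPM at 20h, against 19630, 8325 and 18310 CPM at 18h.

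Mitochondrial ribosomal proteins, a class chosen after its values were seen, had the highest share of higher genes among the groups described here. Of 74 tested, 40 had all 20h libraries above all 18h libraries (54.1%, against 13.1% of all genes) and 1 had them below (1.35%, against 10.8%), with a median log2 of 0.85. Their sum was 4520, 4060 and 4070 CPM at 20h, against 2180, 2280 and 2490 CPM at 18h. Mrpl47 had 99.7, 67.7 and 94.6 CPM at 20h, against 26.6, 19.6 and 25.3 CPM at 18h (log2 1.87; edgeR adjusted p = 0.0787). Subunits of the TIM and TOM import machinery, also chosen after their values were seen, had 9 of 22 above without overlap (40.9%, against 13.1%) and none below.

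The genes of the cytosolic ribosome gave a less stable picture. Of 80 tested members, 19 had all 20h libraries above all 18h libraries (23.8%) and 1 had them below (1.25%), with a median log2 of 0.79. That median was 0.07 without 20h library 1, with 19 members above (23.8%, against 19.9% of all genes) and 7 below (8.75%, against 17.8%). The sum was 6075, 2925 and 3419 CPM at 20h, against 2203, 1905 and 2716 CPM at 18h, and 20h library 1 holds the highest value. Rps24, of the small subunit, had 155, 79.5 and 93.8 CPM at 20h, against 37.7, 29.0 and 51.6 CPM at 18h, and Rps7 had 70.0, 32.8 and 35.2 CPM at 20h, against 16.4, 11.7 and 16.3 CPM at 18h. Neither gene overlaps between the times, with 20h library 1 the highest each time. Ribosomal protein genes have many processed pseudogenes, so their reads may be shared.

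**Figure D2:**
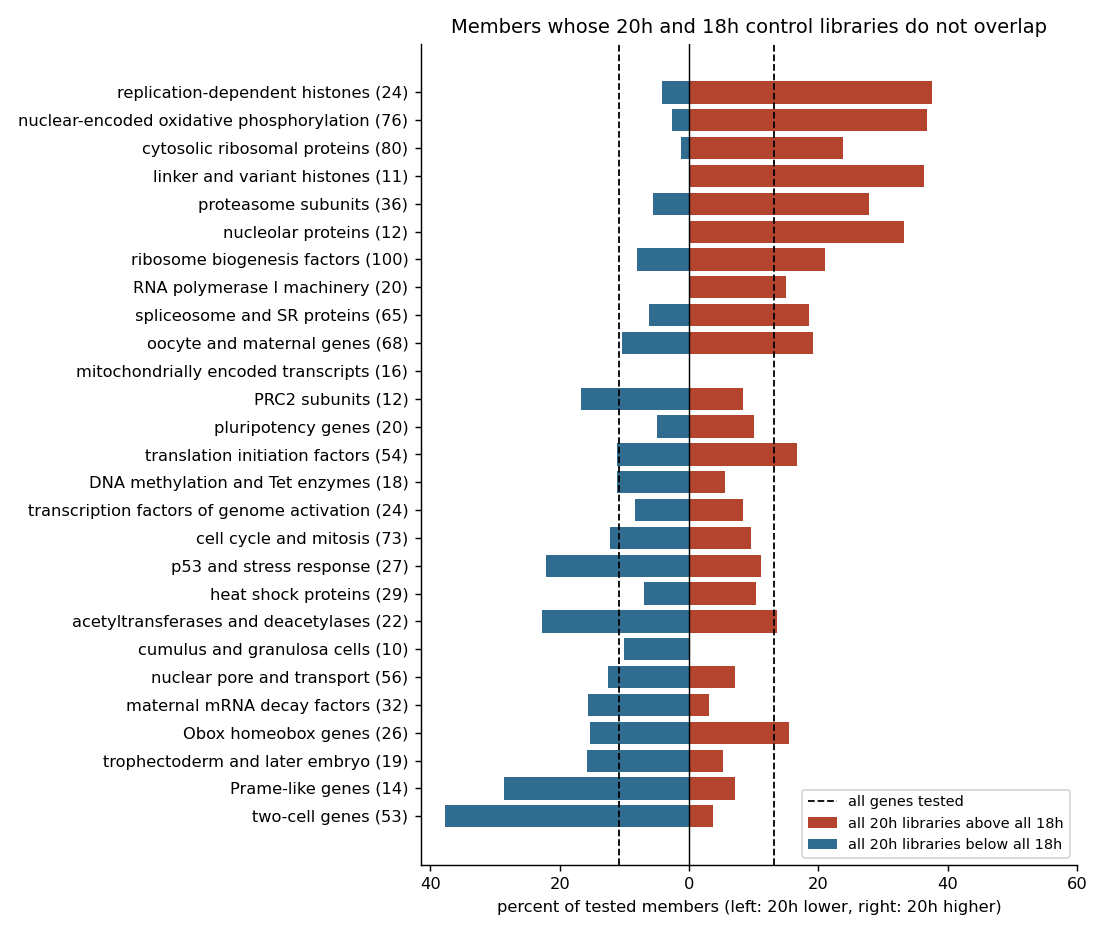
Share of each list's tested members, in percent, whose 3 control libraries at 20h all lie above (bars to the right) or all below (bars to the left) the 3 at 18h, with the number tested in brackets and dashed lines at the shares of all genes tested. The lists with histones and nuclear-encoded oxidative phosphorylation reach furthest to the right, and the 2-cell list reaches furthest to the left at 37.7%.

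LoNA is a nucleolar RNA, and the genes of the nucleolus were therefore described in control embryos too. Of 100 tested ribosome biogenesis factors, 21 were above (21%) and 8 below (8%) without overlap, with a median log2 of 0.28. Nsa2, needed for the large subunit, had 81.4, 84.1 and 73.5 CPM at 20h, against 22.4, 23.4 and 28.3 CPM at 18h, and the libraries within each time are close together. Ddx18, a nucleolar RNA helicase, had 159, 80.8 and 167 CPM at 20h, against 45.3, 29.6 and 32.5 CPM at 18h. The most abundant, Brix1, had 874, 1087 and 1605 CPM at 20h, against 899, 475 and 477 CPM at 18h, and overlaps through 18h library 1.

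Npm1, nucleophosmin, a main protein of the nucleolus, had 2190, 1838 and 2160 CPM at 20h, against 1408, 1086 and 1456 CPM at 18h. The groups do not overlap, and the log2 difference was 0.65 ± 0.27 (SE; edgeR adjusted p = 0.286). Ncl, nucleolin, had 325, 119 and 252 CPM at 20h, against 241, 172 and 235 CPM at 18h, with overlap. Of 12 tested nucleolar proteins 4 were above without overlap (33.3%, against 13.1% of all genes; Surf6, Gnl3, Npm2 and Npm1) and none below. Their median log2 was 0.32, and -0.23 without 20h library 1. In the list for RNA polymerase I, which transcribes ribosomal RNA, 3 of 20 were above without overlap and none below. The share above, 15%, is near the 13.1% of all genes, and none below stands against 10.8%. Without 20h library 1 the share above was 20%, against 19.9% of all genes. Polr1d, a subunit it shares with RNA polymerase III, had 180, 152 and 184 CPM at 20h, against 99.3, 81.0 and 107 CPM at 18h. Tbp, the TATA-binding protein, had 48.8, 204 and 162 CPM at 20h, against 131, 154 and 93.2 CPM at 18h, and overlaps.

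The lincRNA Gm17382, which was almost absent from the KO libraries at both times (at most 3 counts), had 46.9, 97.3 and 55.05 CPM in control embryos at 20h, against 178, 240 and 787 CPM at 18h. The groups do not overlap, and the log2 difference was -2.60 ± 0.55 (SE; edgeR adjusted p = 0.0843). The name LoNA itself is given to none of the listed genes.

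Replication-dependent histone genes, whose mRNA lacks a poly(A) tail and peaks in S phase, could be tested for 24 of 59 listed. Of these 9 were above (37.5%) and 1 below (4.17%) without overlap, with a median log2 of 1.48. Levels were low, with a sum of 297, 122 and 154 CPM at 20h, against 103, 72.3 and 81.1 CPM at 18h. Hist1h3f had 49.1, 19.8 and 13.5 CPM at 20h, against 10.6, 6.89 and 9.45 CPM at 18h, and 20h library 1 is the highest. In KO embryos 1 of these 24 histone genes was above without overlap, against 1669 of the 15414 genes tested in control. The median log2 over the 22 that were tested in KO embryos was 0.31. Among linker and variant histones 4 of 11 were above (36.4%, against 13.1% of all genes) and none below. H1foo, the oocyte linker histone, had 422, 373 and 458 CPM at 20h, against 690, 367 and 202 CPM at 18h, and H3f3b had 2387, 2688 and 2204 CPM at 20h, against 2862, 2489 and 2752 CPM at 18h. Both overlap.

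Proteasome subunits had 10 of 36 tested members above (27.8%) and 2 below (5.56%) without overlap, with a median log2 of 0.46. Psma6, of the alpha ring, had 138, 138 and 182 CPM at 20h, against 65.7, 55.4 and 56.4 CPM at 18h, and Psma7 had 249, 359 and 623 CPM at 20h, against 189, 119 and 127 CPM at 18h. Of 65 spliceosome and SR protein genes 12 were above (18.5%) and 4 below (6.15%), and the median log2 of 0.14 was -0.06 without 20h library 1. Snrpb2, a protein of the U2 snRNP, had 1373, 768 and 795 CPM at 20h, against 317, 209 and 281 CPM at 18h (log2 1.86; edgeR adjusted p = 0.0787). Translation initiation factors as a list were near the background, with 9 of 54 above, 6 below and a median log2 of -0.01, although 2 of the 6 named higher genes belong to it. The abundant cap-binding gene Eif4e had 479, 1737 and 1217 CPM at 20h, against 1613, 1465 and 1588 CPM at 18h, with overlap. Nuclear pore and transport genes had 4 of 56 above (7.14%), 7 below (12.5%, near the 10.8% of all genes) and a median log2 of -0.35. Xpo1, the main nuclear export receptor, had 14.4, 28.8 and 19.9 CPM at 20h, against 80.0, 39.7 and 86.2 CPM at 18h, a log2 difference of -1.71 ± 0.41 (SE; edgeR adjusted p = 0.0949).

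**Figure D3:**
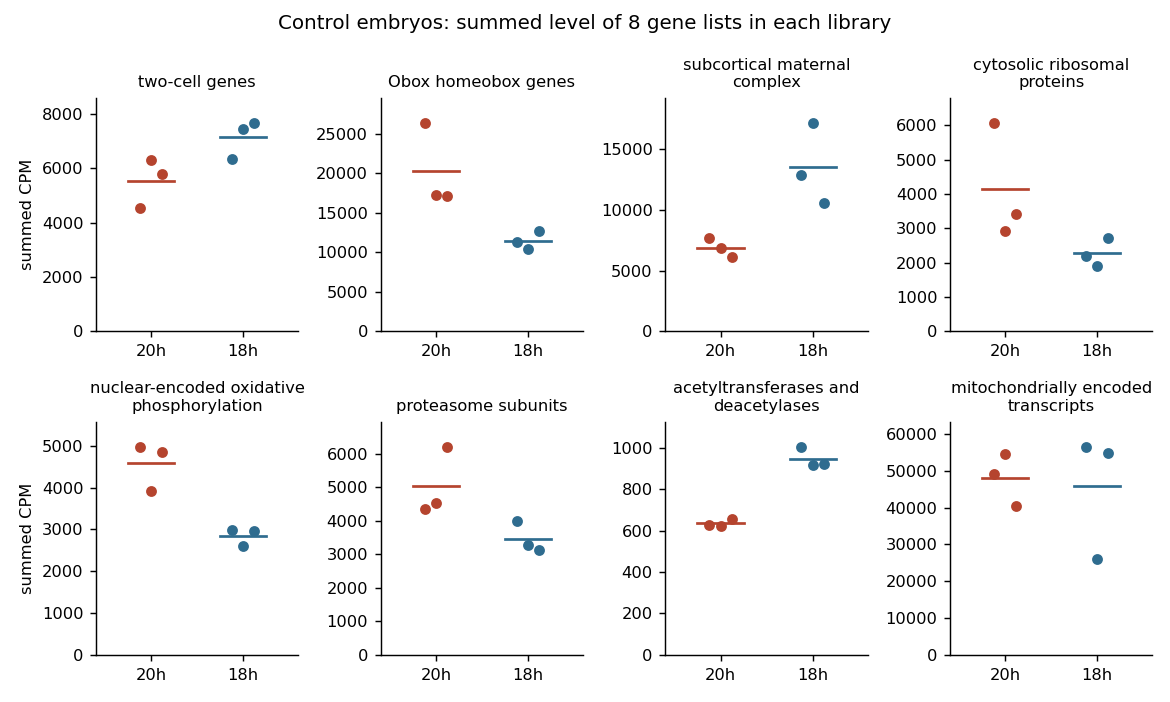
Summed level of 8 gene lists in each control library, in CPM on an axis from 0, with 20h libraries at the left, 18h libraries at the right and a bar at each mean. The sums do not overlap between the times in 7 of the 8 lists, although 20h library 2 comes close to 18h library 1 for the 2-cell genes, and the mitochondrially encoded transcripts overlap.

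Heat shock genes as a list were near the background. Hsp90aa1, the inducible cytosolic HSP90 chaperone, had 4204, 2879 and 4158 CPM at 20h, against 1364, 1233 and 904 CPM at 18h. The groups lie apart with a log2 difference of 1.68 ± 0.31 (SE; edgeR adjusted p = 0.0787), while the list as a whole had 3 of 29 above (10.3%) and 2 below (6.9%). Ddit3, a transcription factor of the unfolded protein response, had 96.3, 69.0 and 79.2 CPM at 20h, against 31.1, 33.1 and 34.7 CPM at 18h. Mdm4, which restrains p53, had 1192, 1367 and 1170 CPM at 20h, against 3112, 2006 and 2704 CPM at 18h. The p53 and stress list had 3 of 27 above (11.1%) and 6 below (22.2%). Cell cycle genes were near the background, with 7 of 73 above and 9 below. Ccnb1, cyclin B1, had 600, 3047 and 1768 CPM at 20h, against 3529, 3296 and 2984 CPM at 18h, where 20h library 1 is the low one and library 2 lies among the 18h libraries. Pttg1, securin, had 4668, 4768 and 4220 CPM at 20h, against 2963, 2143 and 3543 CPM at 18h, without overlap.

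Among chromatin genes, the acetyltransferase genes Crebbp, Ep300, Kat6b and Kat2a and the deacetylase gene Hdac2 lay below at 20h without overlap, and Kat5, Sirt6 and Hdac8 above. Crebbp, which encodes CBP, had 170, 129 and 163 CPM at 20h, against 358, 323 and 367 CPM at 18h, a log2 difference of -1.18 ± 0.26 (SE; edgeR adjusted p = 0.0874). Its paralog Ep300, which encodes p300, had 3.79, 9.63 and 8.15 CPM at 20h, against 26.6, 15.3 and 16.3 CPM at 18h (log2 -1.43; edgeR adjusted p = 0.208). Kat6b had 93.7, 90.4 and 102 CPM at 20h, against 184, 148 and 175 CPM at 18h. The list of acetyltransferases and deacetylases had 5 of 22 below (22.7%) and 3 above (13.6%), and its sum was 629, 623 and 658 CPM at 20h, against 1005, 915 and 923 CPM at 18h. Its median log2 of -0.19 was 0.09 without 18h library 1.

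Ezh2, the methyltransferase of PRC2, had 347, 359 and 294 CPM at 20h, against 358, 300.4 and 315 CPM at 18h, with a log2 difference of 0.04 ± 0.26 (SE), and the groups overlap. In the PRC2 list 1 of 12 was above and 2 below, and Rbbp7 had 960, 2260 and 1552 CPM at 20h, against 2571, 2496 and 1656 CPM at 18h. Dnmt1, the maintenance DNA methyltransferase, had 220, 96.5 and 251.0 CPM at 20h, against 145, 89.0 and 70.1 CPM at 18h. Pou5f1, a pluripotency factor, had 20.1, 20.4 and 13.3 CPM at 20h, against 10.01, 16.99 and 13.3 CPM at 18h. Both overlap between the times. Markers of trophectoderm and later embryo had 1 of 19 above (5.26%) and 3 below (15.8%, against 10.8% of all genes). Gata3 had 89.1, 67.5 and 76.9 CPM at 20h, against 61.2, 63.7 and 44.6 CPM at 18h.

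Further members named for their abundance overlapped between the times. Riok1, a kinase of small subunit assembly, averaged 423 ± 117 CPM at 20h and 454 ± 36.0 CPM at 18h (SD, n = 3 each). Kpna2, a nuclear import adaptor, averaged 619 ± 369 CPM at 20h and 698 ± 139 CPM at 18h, and Rrm2b, a ribonucleotide reductase subunit, 326 ± 115 CPM at 20h and 343 ± 84.5 CPM at 18h. Zfp57, which protects imprinted methylation, averaged 802 ± 242 CPM at 20h and 752 ± 179 CPM at 18h. The linker histone gene Hist1h1a averaged 20.4 ± 6.46 CPM at 20h and 16.7 ± 1.68 CPM at 18h. Psmb2, a proteasome subunit, averaged 554 ± 177 CPM at 20h and 273 ± 135 CPM at 18h, and Snrpe, a core protein of the spliceosome, 810 ± 155 CPM at 20h and 506 ± 221 CPM at 18h. Paip1, which binds the poly(A)-binding protein, averaged 2112 ± 868 CPM at 20h and 3263 ± 724 CPM at 18h. Dnajb4, a co-chaperone, averaged 766 ± 333 CPM at 20h and 1263 ± 296 CPM at 18h. The mitochondrially encoded mt-Nd1 averaged 7566 ± 2274 CPM at 20h and 8623 ± 3003 CPM at 18h.

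A second set of members named for their abundance does not all overlap. Rps15a, a ribosomal protein gene, had 711, 287 and 281 CPM at 20h, against 160, 103 and 240 CPM at 18h, and Rps27l had 1767, 872 and 729 CPM at 20h, against 378, 304 and 594 CPM at 18h. Psma2, a proteasome subunit, had 862, 706 and 1286 CPM at 20h, against 649, 335 and 309 CPM at 18h. Eloc, elongin C, listed with PRC2, had 978, 479 and 670 CPM at 20h, against 408, 236 and 434 CPM at 18h. All 20h libraries of these 4 genes lie above all 18h libraries. Kpna3, a nuclear import adaptor, had 730, 632 and 554 CPM at 20h, against 1054, 772 and 1076 CPM at 18h, with all 20h libraries below. Tcl1, in the pluripotency list, had 2509, 7970 and 4416 CPM at 20h, against 7932, 9675 and 9088 CPM at 18h, and overlaps through 20h library 2.

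Dab2, from the trophectoderm list, averaged 138 ± 49.3 CPM at 20h and 130 ± 34.4 CPM at 18h, with overlap. Odf2, from the sperm and testis list, had 60.2, 70.7 and 40.8 CPM at 20h, against 79.8, 94.8 and 105 CPM at 18h, and Gja1, from the cumulus and granulosa list, had 0, 4.60 and 5.55 CPM at 20h, against 13.7, 5.97 and 10.9 CPM at 18h. Both lie below at 20h without overlap. Cyp19a1, of the same cumulus and granulosa list, averaged 32.0 ± 26.3 CPM at 20h and 32.7 ± 13.3 CPM at 18h. In the fibroblast list Fn1 averaged 29.8 ± 18.4 CPM at 20h and 20.4 ± 8.67 CPM at 18h, and Lgals1 2.54 ± 0.99 CPM at 20h and 11.3 ± 8.08 CPM at 18h. In the blood list Hba-a1 averaged 6.51 ± 5.61 CPM at 20h and 3.41 ± 2.81 CPM at 18h, and Laptm5 20.4 ± 6.45 CPM at 20h and 13.5 ± 5.74 CPM at 18h. Prm2, a protamine of the sperm and testis list, had 57.5, 11.9 and 5.46 CPM at 20h, against 5.74, 2.81 and 11.9 CPM at 18h. These 5 genes overlap between the times.

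Zinc finger genes with a Zfp symbol, a class chosen after its values were seen and to which Zfp54 belongs, lay mostly lower. Of 318 tested, 58 had all 20h libraries below all 18h libraries (18.2%) and 11 had them above (3.46%), with a median log2 of -0.38. Zfp54 stands in a run of such genes on chromosome 17, and the stretch from Zfp160 to Zfp945 (chr17:21008941-22867134, mm10) holds 18 tested Zfp genes. Of these 17 had a negative log2 20h over 18h, as had 7546 of all 15414 genes tested. Below without overlap were 7 (38.9%, against 10.8% of all genes) and none lay above, and the median log2 was -1.27. The stretch was drawn around Zfp54 after the values were seen and holds Zfp54 itself, so nothing is read from its counts. Zfp677, next to Zfp54 among the tested Zfp genes and chosen after its values were seen, had 1.22, 0.365 and 1.13 CPM at 20h, against 14.4, 9.01 and 27.3 CPM at 18h. In KO embryos 15 of 16 tested genes of the stretch had a negative log2, with a median of -1.23.

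The step also differed by kind of gene. Of 996 tested lincRNAs 233 were above (23.4%) and 52 below (5.22%) without overlap, with a median log2 of 0.58, and 388 antisense RNAs had a median of 0.74. The labels do not say whether counting used strand, so reads of an antisense RNA and of its partner cannot be told apart. The 12424 protein-coding genes had a median log2 of -0.05, with 1441 above (11.6%) and 1456 below (11.7%). Among these the median log2 from the shortest to the longest quartile of gene span was 0.25, -0.01, -0.18 and -0.19. The median span was 3237 bases for cytosolic ribosomal protein genes and 7245 bases for nuclear-encoded respiratory genes, against 27011 bases for all protein-coding genes, so the medians of these lists lie in the shortest quartile. The part of gene span in the list values was not tested.

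LoNA KO embryos, whose libraries do not enter the control test, were set beside the control step. By edgeR no gene passed an adjusted p under 0.05 among 14526 tested in KO embryos, with 1002 higher (6.9%) and 878 lower (6.04%) at an unadjusted p under 0.05. Of 15917 genes with a DESeq2 adjusted p, 385 higher (2.42%) and 314 lower (1.97%) passed. Of the 258 genes higher in control embryos at an adjusted p under 0.10, 256 were tested in KO embryos. Among these 250 had the same sign there (97.7%) and 178 were above without overlap (69.5%, against 11.6% of all genes tested in KO). Of the 80 lower genes 71 were tested, 68 had the same sign (95.8%) and 37 were below without overlap (52.1%, against 9.29%). Over all genes tested in both genotypes 69.6% had the same sign. The median log2 was 1.22 in KO and 1.57 in control embryos for the higher genes, and -1.33 in KO and -1.98 in control embryos for the lower genes. The genes were picked for a large value in control embryos, so nothing is read from the difference between these medians. Across 13656 genes the log2 values of both genotypes correlated at 0.413 (Pearson) and 0.477 (Spearman), which is a description across genes that share libraries. KO and control libraries of one time stand in the same deposited table. Whatever else differed between the 20h and 18h tables is therefore shared by both genotypes. The KO libraries cannot tell time from table, and neither can the shared signs.

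**Figure D4:**
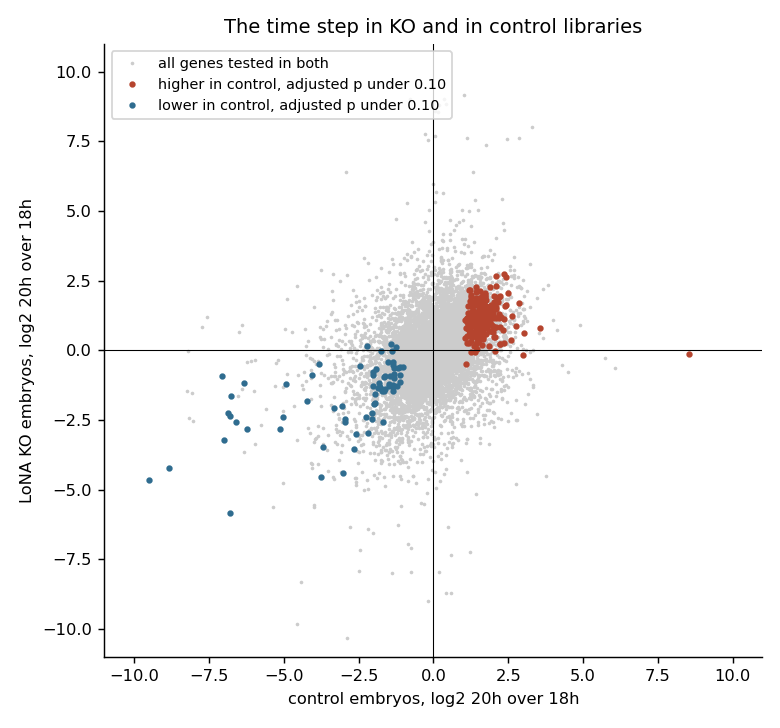
Log2 20h over 18h of each gene in LoNA KO embryos (vertical axis) against control embryos (horizontal axis), for 13656 genes tested in both, with genes at a control adjusted p under 0.10 in colour. Of the coloured genes, 250 of 256 higher ones lie above 0 in KO embryos and 68 of 71 lower ones lie below 0.

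The 2-cell list had a median log2 of -2.39 in KO embryos and -1.36 in control embryos. Of its 53 members tested in control embryos, 26 lay below without overlap in KO embryos, against 1386 of the 15414 genes tested in control. Among the genes tested in KO embryos the share below was 9.29%. Nuclear-encoded respiratory genes had a median of 1.11 in KO and 0.86 in control embryos, and the cytosolic ribosomal proteins 0.42 in KO and 0.79 in control embryos. Zfp54 had 0.196, 1.78 and 0.0731 CPM in KO embryos at 20h, against 30.2, 0.0767 and 87.8 CPM at 18h. There KO 18h library 2 lies at the 20h level. Olfr881 had 9.855, 0.0685 and 1.317 CPM in KO embryos at 20h, against 17.95, 43.25 and 4.499 CPM at 18h, and overlaps. Gm5543 had 4.177, 0 and 0 CPM in KO embryos at 20h, against 40.21, 7.515 and 30.32 CPM at 18h, without overlap. Zscan4c had 13.1, 1.44 and 1.10 CPM in KO embryos at 20h, against 181, 78.1 and 68.2 CPM in KO embryos at 18h. Obox2 had 2947, 2149 and 2374 CPM in KO embryos at 20h, against 2146, 3532 and 848 CPM in KO embryos at 18h, and these overlap. Whether the step differs between the genotypes was tested by the interaction, and edgeR called no gene at an adjusted p under 0.05 among 18046. At an unadjusted p under 0.05 edgeR gave 891 (4.94%), 468 positive (2.59%) and 423 negative (2.34%). Of 17995 genes with a DESeq2 adjusted p, 26 positive (0.144%) and 15 negative (0.0834%) passed. The interaction for Obox2 was -1.65 on the log2 scale (edgeR adjusted p = 0.973). A p above the threshold does not show that the step is alike in both.

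Levels at 22h put some of these genes in order. The 22h libraries are in a further table, and no test was made against them. At 18h, 20h and 22h, control means were 1690, 6745 and 2726 CPM for Rgs2, 5372, 13780 and 4941 CPM for Dppa3, 3024, 6307 and 2406 CPM for Obox1, and 774, 2083 and 988 CPM for Npm2. For these 4 genes 20h is the highest of the 3 times. Zbed3 had means of 10920, 3543 and 5808 CPM and Crebbp 349, 154 and 252 CPM at 18h, 20h and 22h, with 20h the lowest mean. The 22h libraries of Zbed3 had 4280, 9520 and 3622 CPM and overlap those of 20h, while the 22h libraries of Crebbp do not. Rgs2, Npm2, Zbed3 and Crebbp were named at least in part for their difference between 20h and 18h. Nothing is therefore read from a 22h mean that lies between. Eif2s2 had 157, 565 and 509 CPM and Hsp90aa1 1167, 3747 and 4301 CPM, while Zfp54 had 32.4, 0.281 and 1.597 CPM and stayed low. The 22h and 20h values share their 20h libraries with every comparison given here.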

How the data were processed

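RNA was measured in control and LoNA KO embryos at 20h and 18h. The deposited tables hold raw read counts per gene, and the submitters' processing notes name Bowtie2 2.2.3, HISAT2 2.1.0, HTSeq 0.6.0 and build mm10 without roles. The same deposited tables carry a mean signal per gene over their libraries (baseMean) and a fold change as a ratio (KO over control), both computed by the authors and not used for results here. A table lists a gene only where one of its libraries has a count, so a gene of the other table counts as 0 (31296 genes in either table, 23978 in both). Some symbols had been turned into dates, and genes were joined on their IDs.

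Counts were scaled with TMM factors and filtered with filterByExpr (edgeR 4.0.16, limma 3.58.1, R 4.3.3), and 20h was tested over 18h with edgeR's quasi-likelihood test, with Benjamini-Hochberg adjustment over all genes tested. The same factors, extended over the same genes, gave CPM in KO and 22h libraries. KO embryos and the interaction were tested alike. DESeq2 1.42.0, other scaling, no filter, other thresholds, a shared fit and left-out libraries were tried, and the scripts were tested on simulated data. Genes named are those called, or where none was called the 6 of smallest p in a direction, in each list the members called or the 2 most abundant, and a fixed set. Up to 4 members per list with an adjusted p under 0.10 were added after the values were seen. One gene that this rule names is not reported here. Members, lists and tests were chosen with earlier results of these data known. The depth of 12077497 to 15842665 counts per library limits what can be said of genes near 0.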

Additional observations from a re-analysis of the deposited data

How the results depend on the processing

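The numbers of genes called in control embryos depended on the tool and the filter. For higher and lower genes they were 403 and 226 with no filter, 584 and 521 by DESeq2, and 258 and 80 at a threshold of 0.10. Lower genes numbered 0 at a threshold of 0.01 and 0 with all 12 libraries in one fit, and 0 to 5 with each library left out (5 without 20h library 1), while higher genes numbered 0 in each of those. KO embryos gave 232 and 223 with no filter, 385 and 314 by DESeq2, 3 and 1 in the shared fit, and 0 to 17 and 0 to 48 with a library left out. The interaction gave 24 with no filter and 41 by DESeq2. The cause of these differences was not tested. The median log2 of all genes was 0.02 with TMM and -0.11 with library size alone, and under library size alone values near 0 changed sign for Spin1 (-0.0319), Btg4 (-0.0518), Tbp (-0.028), Zfp57 (-0.0484), Dab2 (-0.0383) and Ncl (-0.0091). Ezh2 changed sign under library size alone (-0.0953), RLE factors (-0.016), DESeq2 (-0.0218) and without mitochondrially encoded genes (-0.0101). With single libraries left out, log2 values crossed 0 for C87499 (-0.51 to 0.0405), Oog4 (-1.02 to 0.27), Hist1h1a (-0.0676 to 0.44), Kpna2 (-0.69 to 0.10), Dab2 (-0.27 to 0.33), Cyp19a1 (-0.84 to 0.38), Duxf3 (-1.31 to 1.11), Ncl (-0.32 to 0.36), Mos (-0.15 to 0.40), Ezh2 (-0.0936 to 0.11), Spin1 (-0.0662 to 0.1945), Tbp (-0.34 to 0.43), Zfp57 (-0.13 to 0.22), Fn1 (-0.0204 to 0.94), Rrm2b (-0.49 to 0.11), H1foo (-0.35 to 0.55) and Btg4 (-0.0841 to 0.17). Further list medians crossed 0 in this way. They were those of the oocyte and maternal genes (-0.02 to 0.19), the transcription factors of genome activation (-0.29 to 0.05) and the translation initiation factors (-0.17 to 0.04). The same held for heat shock proteins (-0.32 to 0.01), DNA methylation and Tet enzymes (-0.24 to 0.15) and pluripotency genes (-0.19 to 0.11). It also held for cumulus and granulosa cells (-0.66 to 0.05), fibroblasts (-1.14 to 0.17), and sperm and testis (-0.51 to 1.26). No paired analysis was possible because the columns carry no labelled replicate number. The threshold of 0.10 and the list counts without 20h library 1 were chosen after seeing the data. With 3 libraries a group and a coefficient of variation of 69.5%, a gene that did not pass is not shown to be level.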
